A study of Mus musculus with 6 samples.

Results

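The genes described here are the cytosolic ribosomal protein genes of mouse prefrontal cortex. They were chosen by name, as the rows beginning with Rpl or Rps followed by a number, and the rows Rplp0, Rplp1, Rplp2 and Rpsa, without 10 rows of the S6 kinase family and 3 rows named as pseudogenes. The choice left 86 of 23284 rows. Of these, 77 encode core proteins of the cytosolic ribosome, 46 of the large and 31 of the small subunit, and 8 are paralogs of core genes. The remaining row, Rps19bp1, encodes a protein that binds Rps19 and is not itself a ribosomal protein. Fau and Gnb2l1 also encode ribosomal proteins, but their names fall outside the choice, and they are given below with the related genes.

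All mice were wild type, of the C57BL/6 strain (C57BL/6J in the growth protocol) and 8 to 10 weeks old. The labels name no transgene and no drug. For 6 days they were housed either alone (n = 3 libraries) or in a group (n = 3 libraries), and RNA of the prefrontal cortex was then sequenced from polyadenylated transcripts. Whether each library is a separate mouse is not stated in the labels. The p-values below therefore measure the spread among these 6 libraries, which may be technical.

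The ribosome translates messenger RNA. Its small subunit reads the message and its large subunit joins the amino acids. Each ribosome holds nearly every core protein in a single copy, except the acidic stalk proteins Rplp1 and Rplp2, which are present in several copies. Ribosomal protein messages are among the most abundant of most cells and often begin with a tract of pyrimidines that ties their translation to the mTOR pathway. Mammalian genomes also hold many processed pseudogenes of these genes, which are copies of the spliced message inserted elsewhere, so a short read from the message can match both the gene and a copy.

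Total counts per library ranged from 25858355 to 33428512, and group-housed library 1 was the shallowest. Markers of neurons summed to 8504 to 9548 CPM (counts scaled to library size) in the 6 libraries, with all 6 of the listed genes detected, and those of cortical projection neurons to 479 to 592 CPM. Striatal markers (10 of 10 detected) had sums of 265 to 1800 CPM under single housing and 299 to 826 CPM under group housing. Oligodendrocyte markers (5 of 5 detected) summed to 1686 to 3597 and 1670 to 4563 CPM. Blood markers summed to 1.44 to 5.40 CPM under single and 1.67 to 17.4 CPM under group housing, with 4 of the 6 (the globin rows Hbb-b1, Hbb-b2, Hba-a1, Hba-a2) at 0 counts throughout.

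The first question was how much of each member the table records. Levels are given as RPKM, the TMM-scaled CPM divided by the deposited exon length in kilobases, so that genes of different length can be set side by side. The median of the 77 core genes was 22.2 RPKM. Single genes lay far from it in either direction, from 621 RPKM for Rplp1 down to 0 counts in every library for Rpl26. Levels across the core genes ran closely together between libraries. Over the 76 core genes with counts, the Pearson correlation of log2(RPKM + 0.01) between pairs of libraries was 0.988 to 0.996, a description across genes that share libraries.

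Rplp1, a stalk protein at the site where translation factors bind, had the highest level, at 642, 626 and 566 RPKM in the single-housed and 718, 533 and 641 RPKM in the group-housed libraries. Its stalk partners were lower. Rplp2 had 73.9, 91.4 and 84.3 RPKM in single-housed and 111, 51.4 and 102 RPKM in group-housed libraries. Rplp0, the protein that anchors both to the ribosome, had 74.6, 74.1 and 65.9 RPKM and 85.1, 59.2 and 76.5 RPKM. In all 3 stalk genes the group-housed libraries held both the highest and the lowest value, with the single-housed libraries between them.

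Next in level came Rps15, a small-subunit protein near the decoding site, with a mean of 388 RPKM, followed by Rpl8, which lies close to the peptidyl transferase centre, with 282 RPKM. Rpl4, which lines the tunnel through which the new protein leaves, had 265 RPKM. Rpl41, the smallest ribosomal protein, had 198, 150 and 151 RPKM in single-housed and 189, 174 and 164 RPKM in group-housed libraries.

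Other core genes with central roles had far lower values. Rps6, the small-subunit protein that S6 kinase phosphorylates, had 2.63, 2.81 and 2.99 RPKM in single-housed and 3.13, 2.49 and 3.28 RPKM in group-housed libraries. Rpl5 and Rpl11, which bind Mdm2 together with the small ribosomal 5S RNA when ribosome assembly fails, had means of 0.463 and 1.65 RPKM. Rpl10, among the last proteins to join the large subunit, had 2.23, 2.59 and 3.17 RPKM and 3.40, 2.84 and 2.60 RPKM. By contrast Rpl3, which lies beside the peptidyl transferase centre, had 31.9, 22.1 and 22.8 RPKM and 24.2, 26.2 and 23.0 RPKM.

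With 10% of the core median (2.22 RPKM) as a limit, 16 of the 77 core genes were low: 10 of 46 in the large and 6 of 31 in the small subunit. From the highest to the lowest mean they were Rpl38, Rpl36a, Rps27a, Rpl11, Rpl24, Rps27, Rpl34, Rpl27, Rpl28, Rps16, Rps13, Rps23, Rps29, Rpl30, Rpl5 and Rpl26. The limit fell within a run of close values: Rpl38 (2.14 RPKM), Rpl36a (1.92 RPKM) and Rps27a (1.67 RPKM) lay just under it, and Rpl10 (2.81 RPKM), Rps6 (2.89 RPKM) and Rpl17 (2.92 RPKM) just above. With 25% of the median as the limit, chosen as an alternative, 25 core genes were low.

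**Figure D1:**
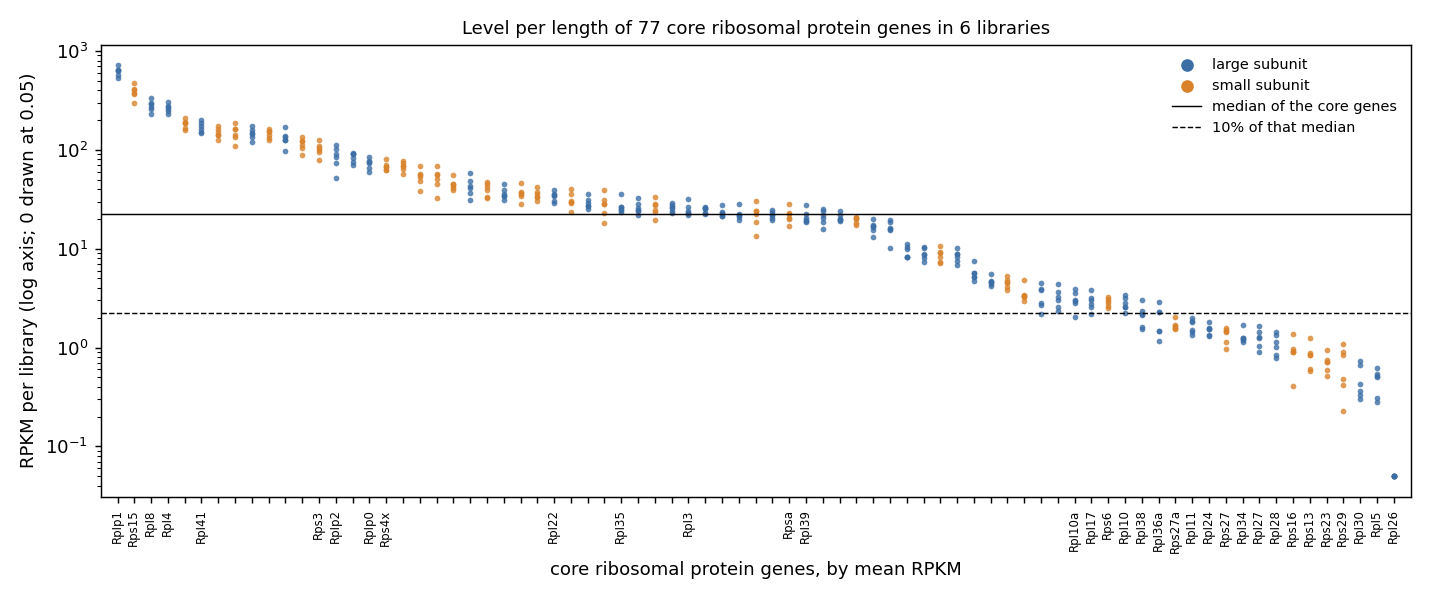
Level of each of the 77 core ribosomal protein genes, ordered by mean; names are given for part of them, and each point is 1 library (RPKM, log axis, with 0 drawn at 0.05) and the colour gives the subunit. The solid line is the core median of 22.2 RPKM and the dashed line is 10% of it, under which 16 genes lie; the 6 libraries of a gene sit much closer together than the genes do.

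The counts behind the low rows are few. Rps23, a protein of the decoding site, had 13, 14 and 11 counts in single-housed and 14, 12 and 9 counts in group-housed libraries, against 9839, 9797 and 8832 and 8941, 7613 and 9450 counts for Rplp1. Rps29 had 14, 11 and 3 counts and 5, 5 and 11 counts. Rps27a, which is made as a fusion with ubiquitin, had 41 to 44 counts in the 6 libraries.

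Coding sequence shared with pseudogenes differed between the low and the high genes. The coding sequence of each core gene was read in windows of 50 bases, and each window was looked for, without mismatches, in the transcripts annotated as pseudogenes in GENCODE M21 (build GRCm38). The stretches below are the middle 50 bases of the longest coding exon, from genes at both ends of the range of levels. Rps23 (0.706 RPKM), Rpl5 (0.463 RPKM), Rps27a (1.67 RPKM) and Rpl10 (2.81 RPKM) stand for the lower end, where each stretch is found whole in at least 1 annotated pseudogene.
Rps23, chr13:90923642-90923691, plus strand, whole in 6 pseudogenes, Gm10054 among them: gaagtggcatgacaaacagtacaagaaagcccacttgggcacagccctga
Rpl5, chr5:107903742-107903791, plus strand, whole in 3 pseudogenes, Gm15500 among them: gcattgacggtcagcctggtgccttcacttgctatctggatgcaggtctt
Rps27a, chr11:29545932-29545981, minus strand, whole in 1 pseudogene, Gm8430: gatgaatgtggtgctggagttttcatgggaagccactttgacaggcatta
Rpl10, chrX:74272728-74272777, plus strand, whole in 4 pseudogenes, Gm48690 among them: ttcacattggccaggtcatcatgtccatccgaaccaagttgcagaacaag

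At the upper end, the same stretch of Rps3 (102 RPKM) and Rpl8 (282 RPKM) was found whole in none of the annotated pseudogenes searched. For Rps3 the closest copy among those searched is printed under the gene. Bases that differ from the gene are in capitals, and positions are counted from 1 at the 5′ end. The Rps3 copy differs by C2T, T24C and G25A.
Rps3, chr7:99479351-99479400, minus strand: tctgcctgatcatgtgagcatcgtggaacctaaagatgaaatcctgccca
Gm8130, pseudogene copy of Rps3: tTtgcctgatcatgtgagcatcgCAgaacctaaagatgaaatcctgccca
Rpl8, chr15:76904902-76904951, plus strand: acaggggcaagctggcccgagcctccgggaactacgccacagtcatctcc

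Over whole coding sequences, 75 of the 77 core genes had at least 1 window in a pseudogene, while Rpl41 was among those with none. In 27 core genes every window was found in a pseudogene. Their median was 2.89 RPKM, and the highest of them was Rps28 with 31.4 RPKM. In 14 core genes at most 50% of the windows were found there. These had a median of 148 RPKM, and the lowest of them was Rpl22 with 33.9 RPKM. Levels of the 2 sets, formed after the values were seen, did not overlap. Of the 14, Rpl13a, Rplp2 and Rplp1 shared 97.5%, 66.2% and 60.4% of windows with any other annotated gene, pseudogenes included. The rest of the 14 genes stayed at or under 50% by that count. Rplp1 had 47.4% of its windows in pseudogenes, Rps15 43.3%, Rpl4 20.3%, Rpl8 8.73% and Rps3 8.09%.

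Across the 77 core genes, Spearman's rho between this percentage and the mean RPKM was -0.77, a description over genes that share libraries and mapping. Windows of 36, 75 and 100 bases gave -0.756, -0.761 and -0.735. The number of pseudogenes that share a window followed the level less closely, with a rho of -0.404. Rpl7a, a large-subunit protein with 121 such pseudogenes, had 26.3 RPKM, and Rps2, with 71, had 35.4 RPKM; 93.3% and 84.1% of their windows were found in pseudogenes, so 50 windows of Rpl7a and 132 of Rps2 were in no other annotated gene. Deposited length had a rho of 0.0675 with the level.

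Of the 16 low genes, 12 had every coding window in a pseudogene, as did 15 of the other 61 core genes. The remaining 4 low genes were the 4 core genes whose exons overlap another row on the same strand by at least 10% of their length in the deposited mm9 coordinates. Rpl26, at chr11:68715068-68718036, shares 520 of its 543 exon bases (95.8%) with Gm15772 and was listed at 0 in every library. A count of 0 allows up to 3 counts, equal to 0.0897 to 0.113 CPM by library. Rpl30, at chr15:34370263-34373031, shares 476 of 626 bases (76%) with Gm12191 and had 15, 7 and 9 counts in single-housed and 11, 7 and 6 counts in group-housed libraries. Rpl34, at chr3:130429749-130433226, shares 401 of 597 bases (67.2%) with Rpl34-ps1, and Rps27, at chr3:90016589-90017570, shares 345 of 575 bases (60%) with Gm9846. Each of these partner rows had 0 counts in every library. Leaving these 4 genes out gave a rho of -0.87 over 73 core genes.

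The table itself holds few of the copies: of 1086 pairs of a core gene and a pseudogene that shares a window with it, 11 have a pseudogene row. How the counting treated reads that match several places, or 2 overlapping rows, is not given in the sources used here, and its part in the low values was not tested. For 28 core genes no coding window was free of all other annotated genes, pseudogenes included. Among the 48 core genes with such windows and counts, dividing CPM by the number of free windows in place of the length changed the SD of the log2 levels between genes from 1.97 to 1.71. These 48 genes include the overlapped Rpl34 and Rpl30, at 0.00918 and 0.00590 CPM per free window, and leave out the 28 genes without one. CPM also counts reads from outside the free windows, so this change cannot show what part copies or overlaps have in the spread. On the opposite strand, Rpl5 overlaps Fam69a over 964 bases (47.7%), Rpl31 overlaps Tbc1d8 over 414 bases (33%) and Rps25 overlaps Ccdc84 over 201 bases (29.4%). Rps27a overlaps 1700034F02Rik over 91 bases (11.1%) and Rpl32 overlaps Cand2 over 42 bases (8.33%), and Rpl35 shares 4 bases with Wdr38. The strand setting of the counting is likewise not given, so the counts of Rpl5, Rpl31, Rps25, Rps27a and Rpl32 are uncertain.

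**Figure D2:**
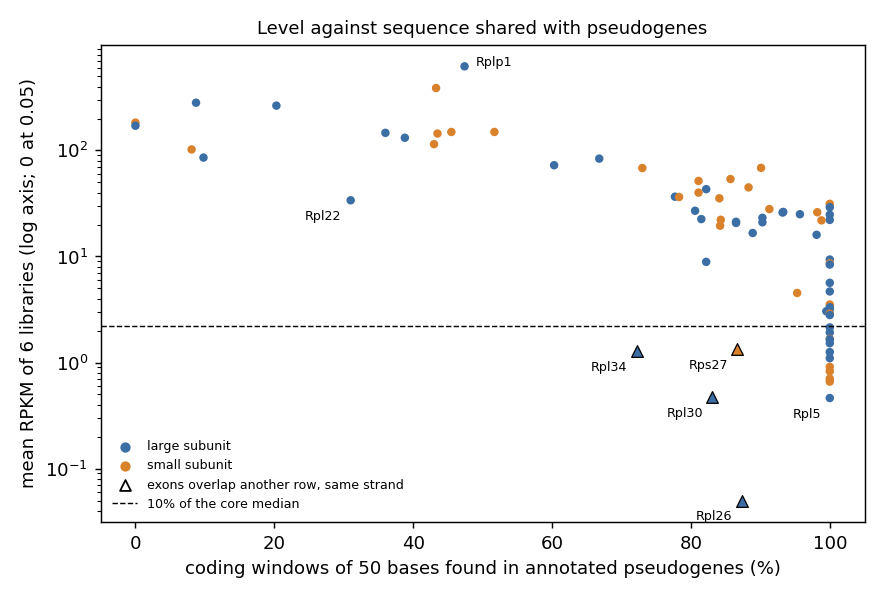
Mean RPKM of the 77 core genes (log axis, 0 drawn at 0.05) against the percentage of their 50-base coding windows found in annotated pseudogenes; triangles mark the 4 genes whose exons overlap another row on the same strand. All 14 genes at or under 50% lie at 33.9 RPKM or above, and the genes under the dashed line (10% of the core median) lie at 72.2% to 100%.

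The subunits were then compared per length. In every library the median core gene of the large subunit was lower than that of the small subunit. In single-housed libraries the medians were 18.7 against 33.4 RPKM, 20.1 against 29.5 RPKM and 19.9 against 28.6 RPKM. In group-housed libraries they were 23.8 against 39.9 RPKM, 17.3 against 28.2 RPKM and 20.5 against 31.0 RPKM. The ratio of large to small was thus 0.561, 0.682 and 0.694 under single housing and 0.596, 0.613 and 0.661 under group housing, and the ranges of the groups overlapped.

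Over the mean of the 6 libraries this ratio was 0.665. Without the 16 low genes it was 0.599, so the lower large-subunit median remained when they were left out. The other 61 core genes still had a median of 86.5% of their 50-base coding windows in pseudogenes. The part of such shared sequence in this ratio was not tested. Summed over all members of a subunit, paralogs included (52 large and 33 small), the large-subunit counts were 1.40 to 1.51 times those of the small subunit. Within the subunits the spread was wide: large-subunit genes ranged from Rplp1 (621 RPKM) to Rpl26 (0 counts), and small-subunit genes from Rps15 (388 RPKM) to Rps29 (0.661 RPKM). The small-subunit genes Rpsa, also known as the laminin receptor precursor, and Rps4x, encoded on the X chromosome, had means of 21.9 and 68.5 RPKM, with 98.8% and 90.1% of windows in pseudogenes.

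The 8 paralogs differed in how they compared with their parents. Per deposited length, Rpl22l1 was recorded at the level of Rpl22: its 28.7, 34.0 and 35.8 RPKM in single-housed and 39.6, 30.5 and 37.9 RPKM in group-housed libraries ran beside 30.4, 35.9 and 34.1 RPKM and 39.1, 28.7 and 35.1 RPKM for Rpl22. The ranges of these genes overlapped in either group. In single-housed library 1 Rpl22l1 and Rpl22 had 449 and 2031 counts, at deposited lengths of 477 and 2040 bases. Of their coding windows, 82.6% and 31% were found in pseudogenes. Rpl7l1, a relative of Rpl7, had a mean of 14.6 RPKM, against 83.7 RPKM for Rpl7.

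For Rpl36a and Rps27, both among the low rows, the paralog had the higher value. Rpl36al had 21.5, 21.7 and 19.0 RPKM in single-housed and 23.7, 17.3 and 23.1 RPKM in group-housed libraries, while Rpl36a had 2.87, 1.47 and 1.47 RPKM and 1.15, 2.28 and 2.27 RPKM. In pseudogenes, 81.4% of the coding windows of Rpl36al and 100% of those of Rpl36a were found. With all other annotated genes counted, the share was 100% for Rpl36al as well, so neither gene had a free window. Rps27l had 136, 126 and 140 counts and 170, 108 and 151 counts, and Rps27 had 18, 28 and 29 counts and 24, 20 and 26 counts. Of the coding windows, 48.3% of those of Rps27l and 86.7% of those of Rps27 were found in pseudogenes, and exons of Rps27 overlap those of Gm9846 as given above.

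Rpl3l, Rpl39l and Rpl10l were near or at 0. Rpl3l, known from heart and skeletal muscle, had 19, 16 and 14 counts in single-housed and 13, 14 and 10 counts in group-housed libraries, although none of its windows was found in a pseudogene. Rpl39l, known from testis, had 5, 1 and 2 counts and 2, 1 and 1 counts. Rpl10l, also known from testis, had 0 counts in every library. Rps4y2, a paralog of Rps4x looked for in the reference as Rps4l, had a mean of 12.9 RPKM in group-housed and 13.5 RPKM in single-housed libraries. No coding transcript was obtained for Rps4y2, so its windows were not read. Rps19bp1 had 20.9, 19.5 and 20.4 RPKM and 22.3, 18.5 and 22.5 RPKM, with no window in a pseudogene.

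Member shares differed more within the group-housed set than within the single-housed set. The 86 members together took 0.325%, 0.344% and 0.317% of the counts of the single-housed libraries, and 0.405%, 0.278% and 0.344% of those of the group-housed libraries. The means were 0.329% ± 0.0137 (SD, n = 3) and 0.343% ± 0.0637 (SD, n = 3). Group-housed library 1 held the highest share and group-housed library 2 the lowest, so the single-housed values lay within the group-housed range.

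Member by member the same pair stood at the ends. Of the 82 members that passed the low count filter, 57 were highest in group-housed library 1 and 47 were lowest in group-housed library 2. Over all 15258 genes that passed, these counts were 3968 and 3534. Among 869 other genes over 500 and up to 1000 bases they were 428 and 435. The pattern was described after the values were seen and without a test. Group-housed library 1 was above library 2 in 75 of 82 members (91.5%), with a median log2 difference of 0.44, against 53.2% and 0.03 over all genes that passed. Among other genes the share was 81.3% up to 500 bases and 82.5% over 500 and up to 1000 bases. By subunit the counts of members higher in library 1 were 38 of 44 large and 30 of 31 small core genes, with medians of 0.44 and 0.46. Among the low core genes that passed they were 10 of 14, with a median of 0.10, and among the 61 other core genes 58, with a median of 0.49.

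The widest gap was that of Rps10, a small-subunit protein, with 30.0 against 13.4 RPKM (a log2 difference of 1.16), and its single-housed values were 18.6, 24.3 and 22.5 RPKM. Rplp2 followed with 1.10 on the log2 scale. For Rps19, the gene most often mutated in Diamond-Blackfan anaemia, the levels were 67.8 and 32.4 RPKM. A few members ran the other way. Rpl36a had a log2 difference of -0.91 between the same libraries, Rpl24 -0.44, Rpl7a -0.23, Rpl3 -0.11, Rpl11 -0.11, Rpl9 -0.05 and Rps13 -0.01. These 7 were named after their values were seen, and Rpl36a, Rpl24, Rpl11 and Rps13 are low rows.

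Other measures moved with this contrast, and their part in it was not tested. Mitochondrial ribosomal protein genes, which serve a separate ribosome, were higher in group-housed library 1 than in library 2 in 64 of 76 cases, with a median log2 difference of 0.23. Genes outside the members differed by transcript length: the median log2 difference was 0.36 for genes of up to 500 bases, 0.30 up to 1000 bases, 0.17 up to 2000 bases, 0.02 up to 4000 bases and -0.15 for longer genes, each class beginning where the one before it ends. Relative to each gene's mean over the libraries, the 5 oligodendrocyte markers had a median log2 deviation of 0.74 in library 1 and -0.71 in library 2. The 2 blood markers with enough counts (Alas2 and Beta-s) had 2.04 and -1.10, and the 10 striatal markers 0.66 and -1.04. The 5 microglial markers had 0.16 and -0.07, the 5 astrocyte markers 0.12 and -0.07, the 5 endothelial markers 0.01 and -0.11, the 4 choroid plexus markers 0.10 and -0.11, the 5 cortical markers -0.09 and 0.15, and the 6 neuronal markers -0.06 and 0.04. The tested members had 0.25 and -0.20.

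In single-housed libraries the medians of striatal and oligodendrocyte markers deviated more than that of the members. Single-housed library 1 held the highest value of all 10 striatal markers, with a median deviation of 1.70, and there the members had -0.05. In single-housed library 3 the oligodendrocyte markers had -0.72 and the members -0.06. A change in the share of a cell type and a change in RNA per cell cannot be told apart in bulk tissue.

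**Figure D3:**
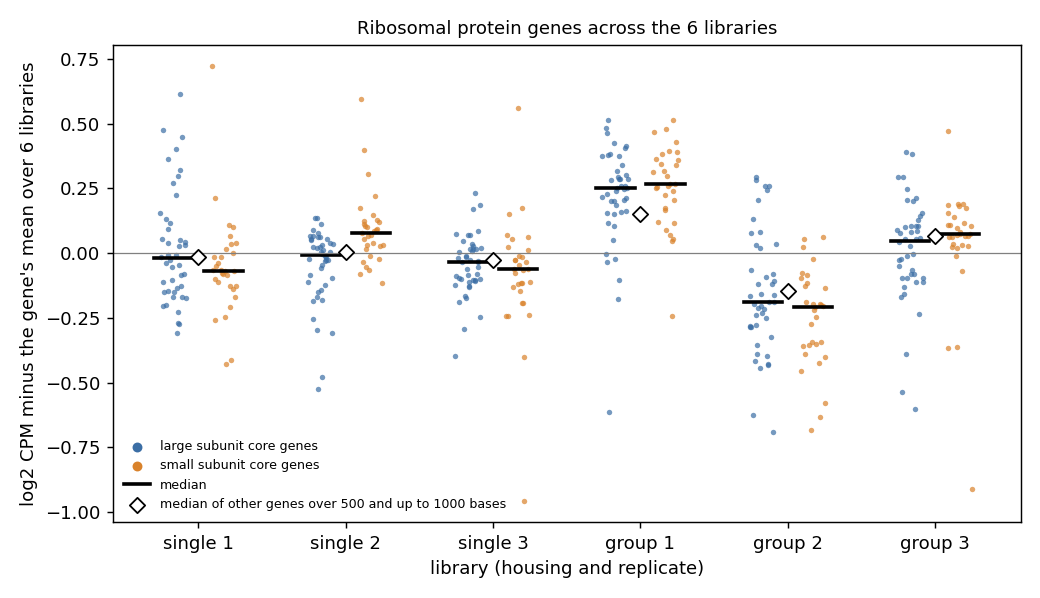
Deviation of each core ribosomal protein gene from its own mean over the 6 libraries (log2 CPM), by library and subunit; bars are medians and diamonds the median of other genes over 500 and up to 1000 bases. The medians of group-housed library 1 lie above 0 and those of group-housed library 2 below 0 for either subunit, and the diamonds of these libraries lie on the same sides.

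The study's comparison is that of single with group housing, which asks what 6 days alone change in the prefrontal cortex. None of the 82 tested members passed edgeR's quasi-likelihood test at an adjusted p of 0.05, beside 0% of all 15258 genes. At an unadjusted p under 0.05, 0 of 82 members passed, beside 1.56% of all genes. DESeq2 and limma-voom also called 0 members, beside 8 and 0 of all 15258 genes. By either tool 0 members had an unadjusted p under 0.05, beside 0.963% and 1.45% of all genes. Differences were small: as log2 of single-housed over group-housed, they ranged from -0.35 to 0.54, with a median of -0.06, against 0.00 over all genes.

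Of the 82 members, 65 had a log2 difference below 0 (79.3%, beside 49.3% of all genes). The same number, 65, was found with DESeq2 size factors, with upper quartile factors, and with TMM factors computed without these genes. The large-subunit members had 36 of 48 below 0 with a median of -0.06, and the small-subunit members 28 of 33 with a median of -0.07. Members share libraries, so this count is not 82 separate observations. It rested on group-housed library 1: without that library 25 of 82 members lay below 0, beside 48.8% of all genes, and the median was 0.05. Without group-housed library 2, 71 of 83 lay below 0, beside 49.6% of all genes, with a median of -0.17. In that fit 20 members had an unadjusted p under 0.05 by edgeR, all lower in single-housed libraries, beside 2.64% of all genes lower at that p. After adjustment 0 members were called, beside 1 of all 15430 genes. Without the 3 libraries of high striatal markers (single-housed 1 and 2 and group-housed 1), 39 of 82 lay below 0, beside 50.7% of all genes, with a median of 0.01. That fit sets 1 single-housed library against 2 group-housed ones, and the spread of the former is taken to be that of the latter.

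The lower member of smallest unadjusted p was Rpl10a, the protein of the large subunit's stalk beside the exit site for transfer RNA. It had 3.05, 2.05 and 2.93 RPKM in single-housed and 3.89, 3.55 and 2.79 RPKM in group-housed libraries, and the groups overlapped. Its log2 difference was -0.35 (SE 0.206, edgeR unadjusted p = 0.129). Rpl39, a protein of the exit tunnel, followed with 18.7, 20.4 and 19.6 RPKM against 27.4, 18.9 and 22.6 RPKM, a log2 difference of -0.23 (SE 0.143, edgeR unadjusted p = 0.143). For Rps27l the difference was -0.28 (SE 0.205, edgeR unadjusted p = 0.212). In Rpl39 and Rps27l the highest value was that of group-housed library 1.

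Above 0, the smallest unadjusted p belonged to Rps16, a small-subunit protein among the low rows, with 18, 28 and 20 counts in single-housed and 15, 17 and 8 counts in group-housed libraries. The log2 difference was 0.54 (SE 0.352, edgeR unadjusted p = 0.158), the largest in size of any tested member, at counts where a few reads move it. Rpl35, a protein at the tunnel exit, had 35.4, 26.3 and 24.9 RPKM against 26.7, 23.5 and 25.3 RPKM, a log2 difference of 0.20 (SE 0.143, edgeR unadjusted p = 0.201), with the highest value in single-housed library 1. Rpl3l had a difference of 0.23 (SE 0.300, edgeR unadjusted p = 0.460).

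Single-housed and group-housed libraries did not overlap in 2 of the 82 members (2.44%, beside 4.86% of all genes), and in both the single-housed values were the lower. Rps27a, a low row with the opposite-strand overlap given above, had 1.56, 1.53 and 1.57 RPKM against 2.01, 1.63 and 1.70 RPKM. Rpl23a, a large-subunit protein near the tunnel exit that was named after its values were seen, had 4.58, 4.22 and 4.39 RPKM against 5.57, 4.74 and 4.59 RPKM. Their log2 differences were -0.19 (SE 0.182) and -0.17 (SE 0.151). Rplp1, the highest member per length, had a difference of -0.04 (SE 0.112), with means of 611 ± 40.0 and 631 ± 93.2 RPKM (SD, n = 3 each). Rps15, the next in level, had -0.04 with an SE of 0.151, as wide as that of Rpl23a.

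**Figure D4:**
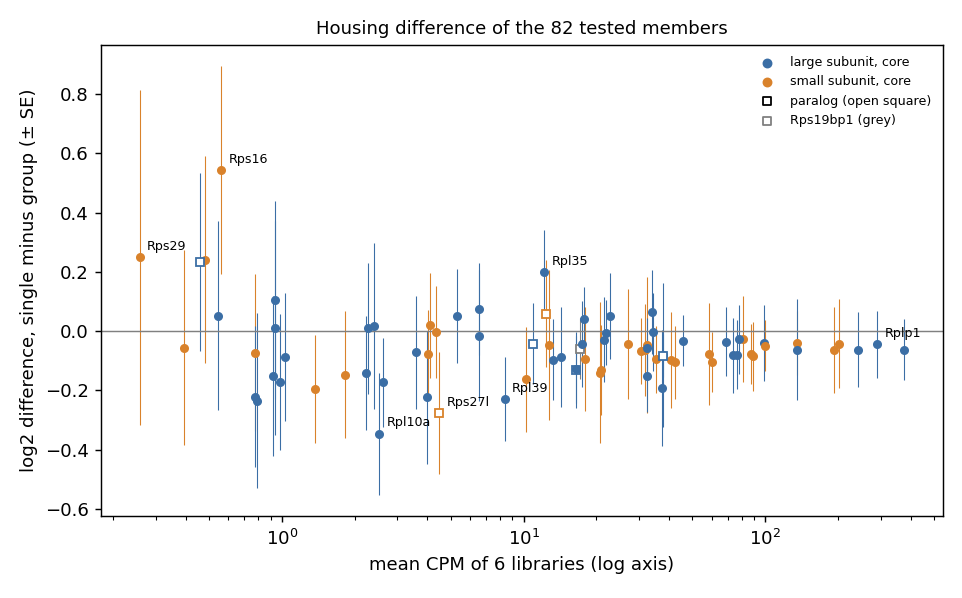
Log2 difference, single minus group, of the 82 tested members against mean CPM over the 6 libraries (log axis); bars are standard errors, filled circles core genes, open squares paralogs and Rps19bp1. Most points lie just below 0, the median is -0.06, and the widest bars and largest differences belong to rows of few counts such as Rps16 and Rps29.

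Other genes of protein synthesis were read from lists, none of which held a gene that passed the test or had an unadjusted p under 0.05. Among the ribosomal proteins with names outside the choice, Gnb2l1, the scaffold protein of the small subunit known as Rack1, had means of 177 and 182 CPM in single-housed and group-housed libraries. Fau, made as a fusion with a ubiquitin-like protein, had 1.38 and 1.44 CPM. Of 8 translation elongation genes 6 lay below 0 with a median of -0.04. Eef1a1, which brings transfer RNA to the ribosome, had 808 ± 38.4 and 823 ± 71.7 CPM (SD, n = 3 each), and Eef2, which moves the ribosome along the message, had 1335 ± 59.9 and 1327 ± 92.2 CPM.

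Initiation genes of the eIF3 and eIF4 groups, with the poly(A) binding protein, had 13 of 20 below 0 with a median of -0.02. Of 7 genes outside the ribosome listed as having such 5′ tract messages, 6 lay below 0 with a median of -0.05, and the tract search described below found the tract in 3 of their 6 matched promoters. Among them Tpt1 had 13.9 ± 0.810 CPM under single and 16.3 ± 2.40 CPM under group housing (SD, n = 3 each), a log2 difference of -0.23 (SE 0.123, edgeR unadjusted p = 0.0936). RNA polymerase I and ribosome assembly genes had 21 of 36 below 0 with a median of -0.01, and the S6 kinase and 4E-BP genes 7 of 14 with a median of 0.01. Mitochondrial ribosomal protein genes had 56 of 76 below 0 with a median of -0.04.

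Promoters of the members were read for features that the choice by name did not use. RefSeq promoters (GRCm38.p6) were matched for 57 of the 77 core genes. A pyrimidine tract, searched on the gene's strand as a C followed by at least 4 pyrimidines beginning within 10 bases of the listed start, was found in 31 of them (54.4%). It was found in 30.8% of all 27025 promoters of the table and in 32.1% of those of tested genes. The share was 52.9% in the large and 56.5% in the small subunit, and 43.3% in 67 mitochondrial ribosomal protein promoters. The tracts had a median length of 8 bases. Windows of 30 bases around the listed start are printed for members that have it, with the tract in capitals, and for Rpl4 and Rps3, where no such tract begins in the searched span.
Rps6, chr4:86857353-86857382, minus strand: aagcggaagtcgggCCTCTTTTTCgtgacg
Rplp2, chr7:141447636-141447665, plus strand: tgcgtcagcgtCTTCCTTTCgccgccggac
Rps24, chr14:24490663-24490692, plus strand: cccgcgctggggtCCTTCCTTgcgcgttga
Rpl15, chr14:18270972-18271001, minus strand: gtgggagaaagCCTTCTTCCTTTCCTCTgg
Rpl38, chr11:114668565-114668594, plus strand: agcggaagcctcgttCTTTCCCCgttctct
Rpl4, chr9:64173372-64173401, plus strand: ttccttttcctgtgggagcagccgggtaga
Rps3, chr7:99483695-99483724, minus strand: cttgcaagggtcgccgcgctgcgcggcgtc

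Tracts are present both in genes recorded at a low level, such as Rps6 (2.89 RPKM) and Rpl38 (2.14 RPKM), and in Rplp2 (85.6 RPKM), while in Rpl4 (265 RPKM) and Rps3 (102 RPKM) no tract begins within the searched span. The Rpl4 window does hold a pyrimidine run that begins just before that span. Over the full promoter of 250 bases before to 50 after the start, on both strands, the ETS factor motif CCGGAAG was found in 40.4% of the core promoters, 9.12% of all promoters and 15.7% of those of tested genes. The YY1 motif AAGATGGC was found in 7.02%, 2.88% and 4.12%. GGGCGG, the Sp1 motif, was found in 59.6%, 35.9% and 62.6%. Related sets had like or higher shares: ETS letters were found in 40% of the RNA polymerase I and ribosome assembly promoters, 34.3% of the mitochondrial ribosomal protein promoters and 33.3% of the eIF3 and poly(A) binding set, and YY1 letters in 17.9% of the mitochondrial ribosomal protein promoters. Each match is a description of letters, not of a bound site.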

How the data were processed

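The data are raw counts of reads per gene in 6 libraries, as deposited, with no normalization by the authors. The tools named, per the submitters' processing notes, are STAR, featureCounts and FastQC, with build mm9; neither versions nor annotation release, strand or multi-mapping settings are given in the sources used here. Per the labels' protocols, libraries were made with a stranded mRNA kit. The deposited length column, per the file headers, gives exon bases and served for RPKM only.

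Genes were filtered with filterByExpr (15258 of 23284 kept) and tested with edgeR 4.0.16 in R 4.3.3 (TMM factors, quasi-likelihood F-test, Benjamini-Hochberg adjustment over all tested genes, threshold 0.05). The F statistic gave each SE. Common biological variation (BCV) was 11.8%. Rpl30, Rpl26, Rpl39l and Rpl10l did not pass the filter. DESeq2 1.42.0 and limma 3.58.1 were alternatives. The test was tried on simulated data first.

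Coding sequences and pseudogenes came from GENCODE M21 and promoters from RefSeq. Rps3a was matched as Rps3a1. Rps4y2 was looked for as Rps4l, but neither a coding transcript nor a promoter was obtained for it. A transcript annotation newer than the authors' build served only for sequence.

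Members and lists were chosen with earlier results of these data known. Named were the stalk genes, a list of core genes with known roles, all paralogs, Rps19bp1, the 3 members of smallest unadjusted p in each direction, the 3 highest and 3 lowest core genes, every low core gene and the 3 just above the limit. Levels rest on counts, and the floor of 3 counts covers counting error only.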

Additional observations from a re-analysis of the deposited data

How the results depend on the processing

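Leaving aside the fit with 1 single-housed library, no member was called under any of the alternatives run. Over all genes, DESeq2 called 8, and the fits without group-housed library 1 and without group-housed library 2 called 1 each. The rest of these alternatives called 0 genes. The count of low core genes was 25 with 25% of the core median as the limit. The ratio of large to small subunit level was 0.599 without the low genes and 0.51 with CPM not divided by length.

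The labels do not say whether the replicate numbers pair the libraries. Deviations of same-numbered libraries correlated at 0.27, -0.32 and 0.17, and not every library correlated best with its own number. Such correlations cannot settle how the libraries were paired. With the replicate number as a block, 0 members were called, 62 of 82 lay below 0 and the median log2 difference was -0.05.

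Of the values of named genes under the alternatives, 587 kept their direction and 63 changed sign; none of these genes had passed the test. The subunit medians also changed sign without group-housed library 1 (large 0.036, small 0.081) and without the 3 libraries of high striatal markers (0.023 and 0.012). Without the 3 libraries of high striatal markers, which leaves 1 single-housed library against 2 group-housed ones, the log2 difference was 0.14 for Rplp2, -0.11 for Rpl3, 0.035 for Rpl4, 0.22 for Rpl10, 0.097 for Rpl22, 0.013 for Rpsa, 0.068 for Rps3, 0.052 for Rps6, 0.23 for Rps27, 0.067 for Rpl22l1, -0.14 for Rps4y2, 0.012 for Rps27l, 0.087 for Rps15, -0.62 for Rpl36a and -1.48 for Rps29. With the striatal marker mean as a covariate it was -0.024 for Rpl3, -0.13 for Rps4y2, -0.080 for Rpl36a, 0.0068 for Rpl24, -0.076 for Rpl28, -0.23 for Rps29 and -0.067 for Rpl17; in that fit 74 of 82 members lay below 0 (49.1% of all genes) with a median of -0.13, and 2 of 82 had an unadjusted p under 0.05 (2.84% of all genes). Rpl36a had -0.012 with the replicate block and -0.0083 with limma-voom. The cause of these changes was not tested.

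Leaving out each library in turn gave log2 differences of -0.17 to 0.25 for Rpl17, -0.15 to 0.070 for Rpl22, -0.19 to 0.038 for Rpl24, -0.37 to 0.046 for Rpl27, -0.13 to 0.29 for Rpl28, -0.13 to 0.17 for Rpl3, -0.38 to 0.19 for Rpl36a, -0.17 to 0.039 for Rpl36al, -0.17 to 0.028 for Rpl4, -0.14 to 0.35 for Rpl5, -0.20 to 0.056 for Rpl8, -0.17 to 0.079 for Rplp0, -0.15 to 0.060 for Rplp1, -0.35 to 0.12 for Rplp2, -0.060 to 0.47 for Rps13, -0.20 to 0.12 for Rps15, -0.26 to 0.17 for Rps23, -0.19 to 0.11 for Rps27, -0.17 to 0.67 for Rps29, -0.23 to 0.083 for Rps3, -0.19 to 0.0060 for Rps4x, -0.081 to 0.21 for Rps4y2, -0.19 to 0.0038 for Rps6 and -0.26 to 0.094 for Rpsa.

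Low rows rest on few counts, so their differences were not measured well at this depth. A coding window in a pseudogene says nothing of reads from untranslated sequence, and the annotation searched was not that of the authors.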
